A study of Bos taurus with 6 samples.

Results

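FBS, the serum of unborn calves that is added to most culture media, was examined here for miRNAs known best from neurons and from the endocrine pancreas. The members were taken by name, as every row for miR-7, miR-9, miR-124, miR-128, miR-129, miR-137, miR-138, miR-218 or miR-375, both arms and the mouse forms miR-7a and miR-7b included. They number 10 of 502 names in the table of reads mapped to the human genome (hg19) and 13 of 395 in the table mapped to the mouse genome (mm10). No row for miR-124 was found under either genome, so miR-124 was not analysed here. The study spun FBS at 100000 g for 24 h, in volumes of 40 mL, and sequenced small RNA of 3 pellets (EV-enriched) and 3 supernatants (EV-depleted). A concentration step on 3 kDa filters, applied to 20 mL of each supernatant, had no counterpart for the pellets. Both fractions shared the T4-PNK treatment of 60 ng RNA, inserts of 15 to 65 nt and 50 nt reads, and both are bovine RNA read through human or mouse names. Levels are RPM, which scale the reads of a miRNA to the mapped reads of its library.

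miRNAs are short RNAs that guide Argonaute proteins to matching sites in mRNAs and lower their translation and stability. miR-7 is abundant in neurons and in islet and pituitary endocrine cells, and miR-375 is the best known islet miRNA, where it restrains insulin secretion. miR-218 marks motor neurons and is made from introns of the SLIT axon guidance genes, while miR-9 acts in neural progenitors and miR-124 in mature neurons. miR-128, miR-129, miR-137 and miR-138 are brain-enriched and regulate excitability, synapses and neuronal maturation, and miR-128 is also found in blood-forming cells. In a serum pool fewer cells of a type and less RNA per cell cannot be told apart, and the tissue of origin was not measured.

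Cattle carry genes for all of these numbers. The RefSeq gene table of the cattle assembly ARS-UCD2.0 lists 17 such miRNA genes among 1032, namely 3 for miR-124, 1 each for miR-137 and miR-375, and 2 for each of the others. Both miR-218 genes overlap SLIT genes, MIR218-1 with SLIT2 and MIR218-2 with SLIT3. MIR7-2 overlaps HNRNPK, a gene for an RNA-binding protein. MIR128-1 overlaps R3HDM1 and MIR128-2 overlaps ARPP21, whereas MIR375 and MIR137 overlap no other listed gene. The table gives no strand, the names match by number alone, and sequences were not compared.

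The libraries differed in depth. Mapped reads to hg19, estimated by counting as 1 read the smallest RPM found for 6 or more names of a library, ranged from 867426 in pellet 3 to 6660802 in pellet 1. A single read thus corresponded to 1.15 RPM in pellet 3, and in pellet 1 to 0.150 RPM. Listed miRNAs made up 5.21% to 12.9% of mapped reads. miR-122-5p, the hepatocyte miRNA, held 59.4% to 78.3% of the miRNA signal of a library. RPM are shares, so a change of one RNA moves all others.

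The neural and islet miRNAs were a small part of the FBS miRNA signal, and their amount differed widely between libraries of the same fraction. The 10 rows together reached 1133 RPM in pellet 1, 190.2 RPM in pellet 2 and 911 RPM in pellet 3. In the supernatants they reached 33.7 RPM, 24.1 RPM and 113 RPM in replicates 1, 2 and 3. Every pellet was thus above every supernatant in this sum, with pellet 2 lowest of the pellets and supernatant 3 highest of the supernatants. Of the miRNA signal the sum was 0.879%, 0.246% and 1.44% in pellets 1, 2 and 3, and 0.0576%, 0.0438% and 0.218% in supernatants 1, 2 and 3. On this scale supernatant 3 came close to pellet 2. Leaving out miR-122-5p and miR-1246, the most abundant pair, the shares were 6.12%, 1.55% and 13.5% in the pellets and 1.30%, 1.03% and 4.07% in the supernatants, and supernatant 3 exceeded pellet 2.

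Of the 10 human rows, 7 reached 1 RPM in 3 or more libraries and were tested, and of all 502 names 349 stayed below this filter. All 7 passed this filter with libraries of both fractions. The other rows were miR-137, miR-129-2-3p and miR-218-2-3p, each at no more than 1.15 RPM and 1 estimated read in any library. miR-137 was above 0 in 1 library, pellet 2, at 0.336 RPM. At 0 reads, a level of up to 0.450 RPM in pellet 1 and up to 3.46 RPM in pellet 3 is possible (3 counts, counting error only). Of the 8 human rows of neuronal miRNAs, 1 to 4 were at 0 in a library, whereas the islet rows miR-7-5p and miR-375 were above 0 in all 6. The 3p arms of miR-129 and miR-218 were at the limit of detection, while their 5p arms reached 51.9 RPM in pellet 3 and 399 RPM in pellet 1.

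**Figure D1:**
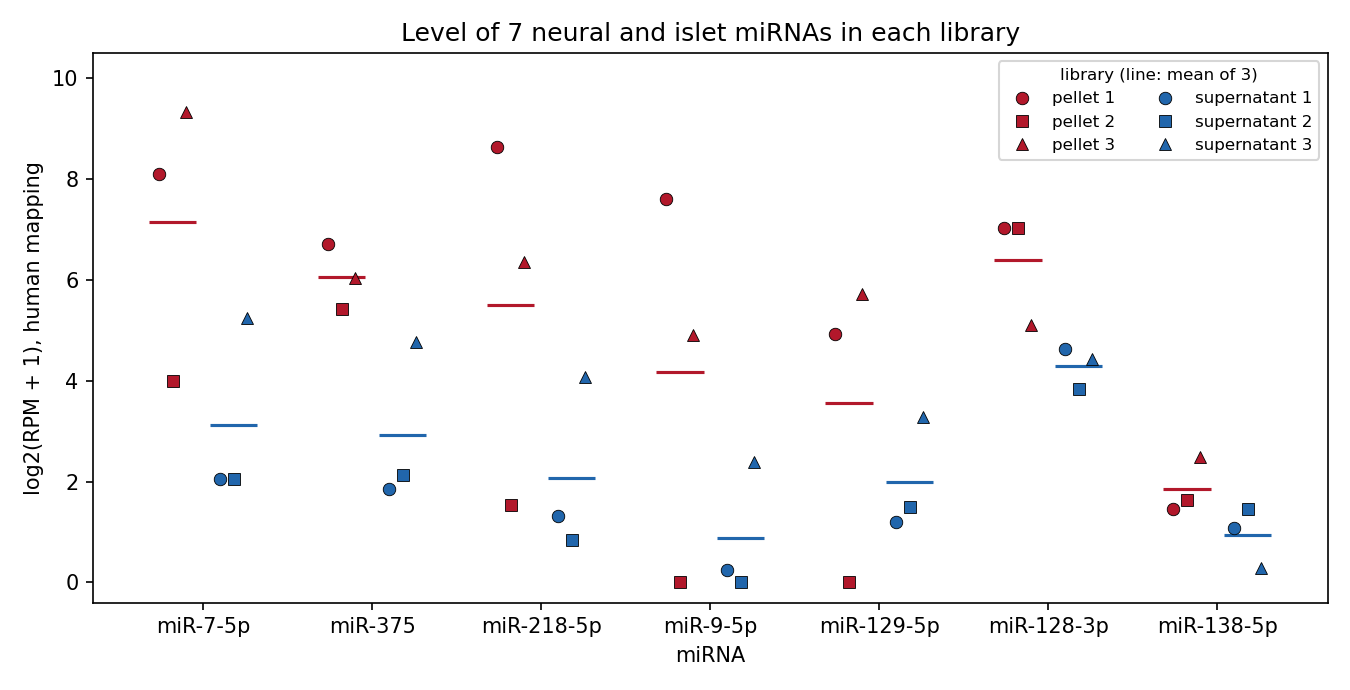
Each point is log2(RPM + 1) of 1 library in the human mapping, for the 7 tested miRNAs, with pellets in red, supernatants in blue and a line at the mean of 3. Pellet 2 (red square) lies far below pellets 1 and 3 for miR-7-5p, miR-218-5p, miR-9-5p and miR-129-5p, and supernatant 3 (blue triangle) lies above the other supernatants for these and for miR-375.

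hsa-miR-7-5p, the endocrine and neuronal miRNA, had the highest pellet mean of the members, carried by pellet 3, while miR-218-5p was first in pellet 1 and miR-128-3p in pellet 2. It stood at 274 RPM in pellet 1, 14.9 RPM in pellet 2 and 646 RPM in pellet 3, and at 3.13 RPM, 3.16 RPM and 36.9 RPM in supernatants 1, 2 and 3. The pellets ranged over 43.3-fold, and supernatant 3 was above pellet 2, so the fractions overlapped. In pellet 3 miR-7-5p ranked 3 among all 502 names, against rank 84 in pellet 2. The mean was 312 ± 317 RPM for pellets and 14.4 ± 19.5 RPM for supernatants (SD, n = 3 per fraction). The log2 difference of pellet minus supernatant on log2(RPM + 1), which understates changes of low RNAs, was 4.03 (standard error 1.42, adjusted p = 0.0456 from limma with Benjamini-Hochberg adjustment over all tested miRNAs of the table). The two-sided exact permutation test, which cannot go below 0.10 with 3 against 3, gave p = 0.20. miR-7-5p no longer passed without pellet 1 or 3 (adjusted p = 0.0593 and 0.0711) or without supernatant 1, 2 or 3 (adjusted p = 0.144, 0.139 and 0.0579). Without supernatant 1 or 2 limma called 0 miRNAs of the whole human table. Without pellet 2 the log2 difference was 5.61 (adjusted p = 0.00985).

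hsa-miR-375, the islet miRNA, was the steadiest of the abundant members among the pellets and separated the fractions in RPM. It stood at 104.5 RPM, 42.1 RPM and 64.6 RPM in pellets 1, 2 and 3, and at 2.61 RPM, 3.39 RPM and 26.3 RPM in supernatants 1, 2 and 3. All pellets were above all supernatants, and supernatant 3 was 10.1 times as high as supernatant 1. The mean was 70.4 ± 31.6 RPM for pellets and 10.8 ± 13.5 RPM for supernatants (SD, n = 3 per fraction), a coefficient of variation of 44.9% against 125%. The log2 difference was 3.14 (standard error 0.85, adjusted p = 0.0237 from limma, exact permutation p = 0.10). It did not pass without supernatant 1 (adjusted p = 0.0852) or supernatant 2 (adjusted p = 0.102). In these fits limma called 0 miRNAs of the whole human table, and miR-375 had an unadjusted p of 0.0314 and 0.0272 by limma. Scaled to the miRNA reads other than miR-122-5p and miR-1246, the log2 difference of miR-375 was 1.18 (adjusted p = 0.488 from limma).

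hsa-miR-218-5p, the motor neuron miRNA, had the highest value of any member in pellet 1 and was nearly missing from pellet 2. The values were 399 RPM, 1.91 RPM and 80.3 RPM in pellets 1, 2 and 3, a 209-fold range. The supernatants held 1.49 RPM, 0.783 RPM and 15.9 RPM in replicates 1, 2 and 3, and supernatant 3 was above pellet 2. In estimated reads pellet 2 held 3, as did supernatant 2, against 2660 in pellet 1. The log2 difference of 3.43 did not pass (standard error 1.70, adjusted p = 0.115 from limma, exact permutation p = 0.20). Without pellet 2 it was 5.42 and passed (adjusted p = 0.0110).

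miR-9-5p, the miRNA of neural progenitors, was high and low in the same pellets as miR-218-5p. It stood at 194.4 RPM in pellet 1, at 0 in pellet 2 and at 28.8 RPM in pellet 3. Supernatant 1 held 0.186 RPM, which is 1 estimated read, supernatant 2 was at 0 and supernatant 3 held 4.22 RPM. The 0 in pellet 2 allows a level of up to 1.91 RPM, and that in supernatant 2 up to 0.783 RPM. The ratio of miR-218-5p to miR-9-5p was 2.05 in pellet 1, 2.79 in pellet 3 and 3.77 in supernatant 3, while each of them ranged over more than an order of magnitude between these libraries. In supernatant 1 the ratio was 8, resting on 1 estimated read of miR-9-5p. The log2 difference between fractions was 3.29 (standard error 1.74, adjusted p = 0.134 from limma, exact permutation p = 0.40). It passed without pellet 2 (5.38, adjusted p = 0.00985).

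miR-129-5p, a brain-enriched miRNA, also had a low pellet 2 and a high supernatant 3, at lower levels. Its values were 29.4 RPM, 0 and 51.9 RPM in pellets 1, 2 and 3 and 1.30 RPM, 1.83 RPM and 8.76 RPM in supernatants 1, 2 and 3. The 0 in pellet 2 allows a level of up to 1.91 RPM, so pellet 2 was below pellets 1 and 3 and supernatant 3 but cannot be ordered against supernatants 1 and 2. The log2 difference of 1.55 did not pass (standard error 1.45, adjusted p = 0.362 from limma, exact permutation p = 0.40). Without pellet 2 it was 3.33 (adjusted p = 0.0177).

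miR-128-3p, a neuronal miRNA also found in blood-forming cells, had neither a low pellet 2 nor a high supernatant 3. It stood at 129.6 RPM, 128.9 RPM and 33.4 RPM in pellets 1, 2 and 3, with pellet 3 the lowest, and at 23.9 RPM, 13.2 RPM and 20.4 RPM in supernatants 1, 2 and 3. The supernatants differed 1.80-fold at most, and all pellets were above all supernatants in RPM. The log2 difference was 2.09 (standard error 0.64, adjusted p = 0.0319 from limma, exact permutation p = 0.10), which is near the median of 2.05 over all tested miRNAs. It did not pass without pellet 1 or 2 (adjusted p = 0.0539 and 0.0664) or without supernatant 1, 2 or 3 (adjusted p = 0.0852, 0.121 and 0.0825). In the fits without supernatant 1 or 2 no miRNA of the whole human table was called.

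miR-138-5p, which limits the size of dendritic spines, was rare in all libraries. It stood at 1.73 RPM, 2.12 RPM and 4.61 RPM in pellets 1, 2 and 3 and at 1.12 RPM, 1.74 RPM and 0.216 RPM in supernatants 1, 2 and 3, at most 11.5 estimated reads. Supernatant 3 was the lowest supernatant here, at 0.667 estimated reads against 6 and 6.67 in supernatants 1 and 2. By contrast, it was the highest for miR-7-5p, miR-375, miR-218-5p, miR-9-5p and miR-129-5p. Supernatant 2 was just above pellet 1 for miR-138-5p. Its log2 difference was 0.92 (standard error 0.62, adjusted p = 0.223 from limma, exact permutation p = 0.20).

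In all, 3 of the 7 tested members were higher in the pellets (miR-7-5p, miR-375 and miR-128-3p), 0 were lower (0 also at an unadjusted p under 0.05 by limma) and 4 did not pass, whereas 47.7% of all tested miRNAs were higher (73 called, 80 not) and 0% were lower (0 at an unadjusted p under 0.05). In RPM the fractions did not overlap in 2 of the 7, miR-375 and miR-128-3p, against 66.7% of all tested miRNAs. The median log2 difference was 3.14 over the members and 2.05 over all tested miRNAs. Relative to that median of all, the difference was 1.98 for miR-7-5p, 1.39 for miR-218-5p, 1.25 for miR-9-5p, 1.10 for miR-375, 0.042 for miR-128-3p, -0.49 for miR-129-5p and -1.13 for miR-138-5p. Scaled to the miRNA reads other than miR-122-5p and miR-1246, the median of all fell to 0.28, with 1 miRNA higher and 5 lower in place of 73 and 0. None of the 7 passed then (0 at an unadjusted p under 0.05 by limma). On that scale miR-7-5p stood at 2.06 and miR-375 at 1.18, while miR-128-3p, miR-129-5p and miR-138-5p turned to -0.0198, -0.0303 and -0.29.

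**Figure D2:**
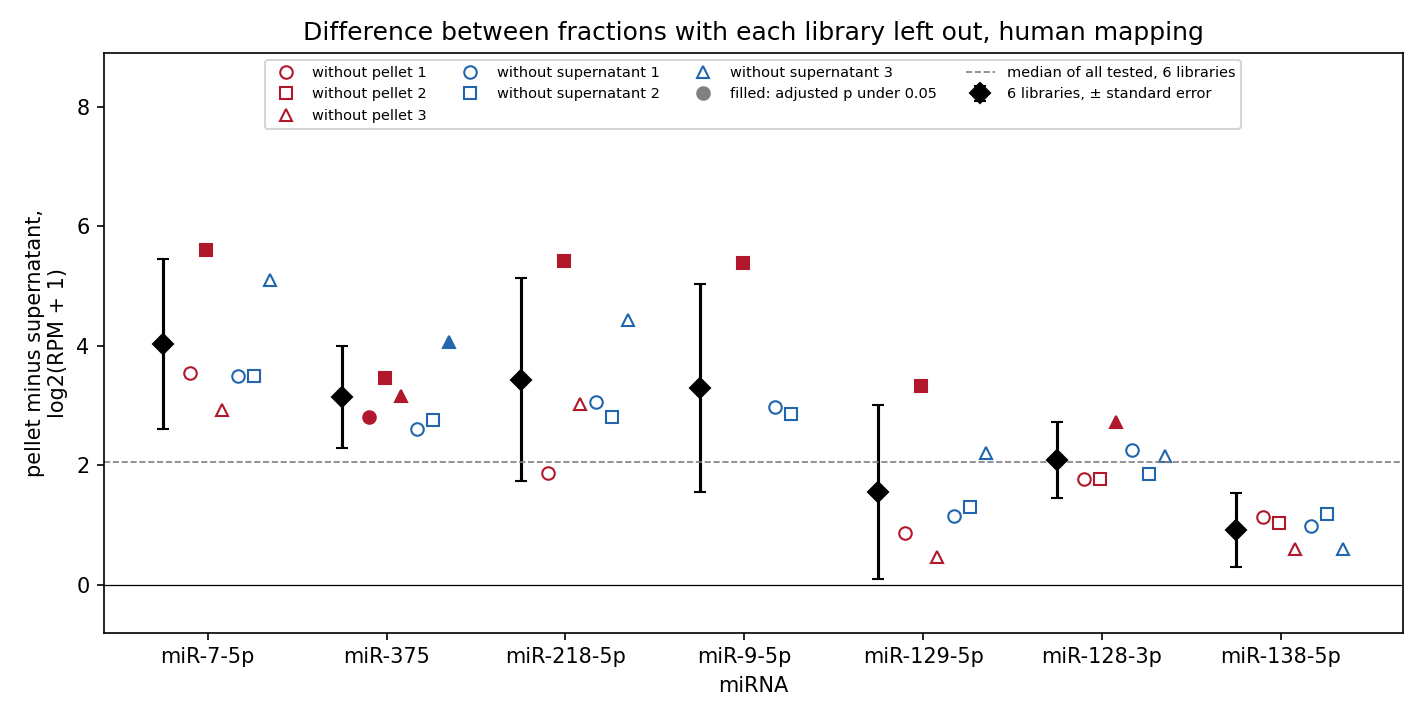
Black diamonds give the pellet minus supernatant difference of log2(RPM + 1) with its standard error from all 6 libraries, for the 7 tested miRNAs of the human mapping, and the other markers give it with 1 library left out, filled where the adjusted p was under 0.05. Leaving out pellet 2 raised miR-218-5p from 3.43 to 5.42 and miR-9-5p from 3.29 to 5.38. The dashed line is the median of 2.05 over all tested miRNAs, and miR-9-5p was below the filter in the fits without pellet 1, pellet 3 or supernatant 3.

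The spread between libraries of one fraction was wide for most of the members. As the SD of log2(RPM + 1) over the 3 pellets, miR-9-5p ranked 1 and miR-218-5p ranked 2 among all tested miRNAs, at 3.86 and 3.62. miR-129-5p ranked 4 at 3.10 and miR-7-5p ranked 8 at 2.80, where the median of all tested miRNAs was 1.06. Among the pellets miR-128-3p lay near the median at 1.11, and miR-375 (0.65) and miR-138-5p (0.55) lay below it. In the supernatants miR-7-5p ranked 2 at 1.84, miR-218-5p ranked 3 at 1.75 and miR-375 ranked 5 at 1.61, against a median of 0.46. miR-375 was thus even among pellets and uneven among supernatants, where supernatant 3 was the high library.

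**Figure D3:**
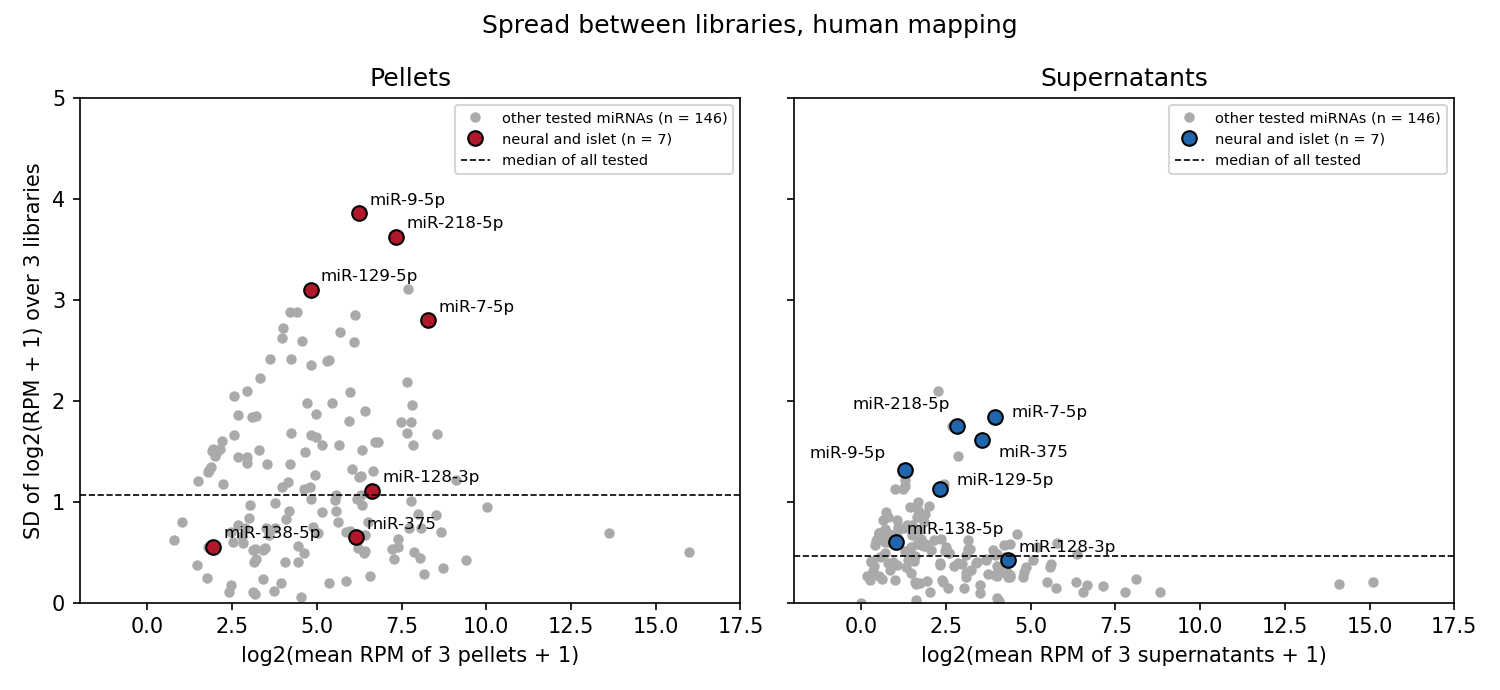
Each point is 1 tested miRNA of the human mapping, with the log2 mean RPM of a fraction on the horizontal axis and the SD of log2(RPM + 1) over its 3 libraries on the vertical axis, for pellets on the left and supernatants on the right. miR-9-5p (3.86) and miR-218-5p (3.62) are the topmost points among the pellets, and miR-128-3p lies near the dashed median in both fractions.

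Pellet 2 and supernatant 3 stood apart from the other libraries of their fraction. Pellet 2 was the lowest pellet for 5 of the 7 tested members, as for 26.8% of all tested miRNAs, and was below 0.1 times both other pellets for 4 members and for 20 tested miRNAs in all. Those 4 were miR-7-5p, miR-218-5p, miR-9-5p and miR-129-5p. Supernatant 3 was the highest supernatant for 5 members, as for 50.3% of all tested miRNAs, and exceeded 4 times both other supernatants for these 5 and for 21 tested miRNAs in all. Both limits were chosen after the values were seen. Pellet 2 had the highest sums of blood cell miRNAs, each carried mostly by 1 row. The summed RPM of 4 red blood cell rows (miR-144-3p, miR-16-2-3p, miR-451a and miR-486-5p) was 512 in pellet 2, against 167 in pellet 1 and 194.3 in pellet 3, with none of the rows at 0 in a pellet, and 11.9 to 20.9 in the supernatants, with 1 row at 0 in each. Of these sums miR-486-5p held 439.8, 138.1 and 176 RPM in pellets 2, 1 and 3. miR-451a and miR-144-3p were also highest in pellet 2, whereas miR-16-2-3p was highest in pellet 1 (24.3 RPM, against 20.4 RPM in pellet 2). The summed RPM of 4 platelet and leukocyte rows (miR-126-3p, miR-142-5p, miR-223-3p and miR-223-5p) was 246 in pellet 2, 41.1 in pellet 1 and 48.4 in pellet 3, and 14.4 to 23.3 in the supernatants, with 1 or 2 of the 4 rows at 0 in each library. Of these miR-142-5p held 241 RPM in pellet 2, 31.3 RPM in pellet 1 and 39.2 RPM in pellet 3, whereas miR-126-3p was lowest in pellet 2 (4.49 RPM against 9.31 and 9.22 RPM) and the miR-223 rows were at no more than 0.450 RPM. The hepatocyte rows (miR-122-5p, miR-192-5p, miR-194-5p and miR-885-3p) summed to 92899 RPM in pellet 1, 51906 RPM in pellet 2 and 49661 RPM in pellet 3, and to 30992 to 40809 RPM in the supernatants, with 1 row at 0 in every library but supernatant 3. Their part in the levels of the neural and islet miRNAs was not tested.

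The make-up of the signal differed accordingly. In pellet 1 miR-218-5p held 35.3% of the summed RPM of the 10 rows, miR-7-5p 24.2% and miR-9-5p 17.2%. In pellet 3 miR-7-5p alone held 70.9%. In pellet 2 and in supernatants 1 and 2, miR-128-3p was first with 67.7%, 70.8% and 54.8%. Supernatant 3 lay between these make-ups, with miR-7-5p at 32.5%, miR-375 at 23.2%, miR-128-3p at 18.0% and miR-218-5p at 14.03%. The ratio of a pair of miRNAs in one library is free of the RPM scaling. miR-7-5p stood at 19.3 times the level of miR-128-3p in pellet 3 and at 2.11 times in pellet 1, but at 0.116 times in pellet 2, and at 0.131, 0.239 and 1.80 times in supernatants 1, 2 and 3. Pellet 2 thus had a miR-7-5p to miR-128-3p ratio like those of supernatants 1 and 2, and supernatant 3 one like that of pellet 1.

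**Figure D4:**
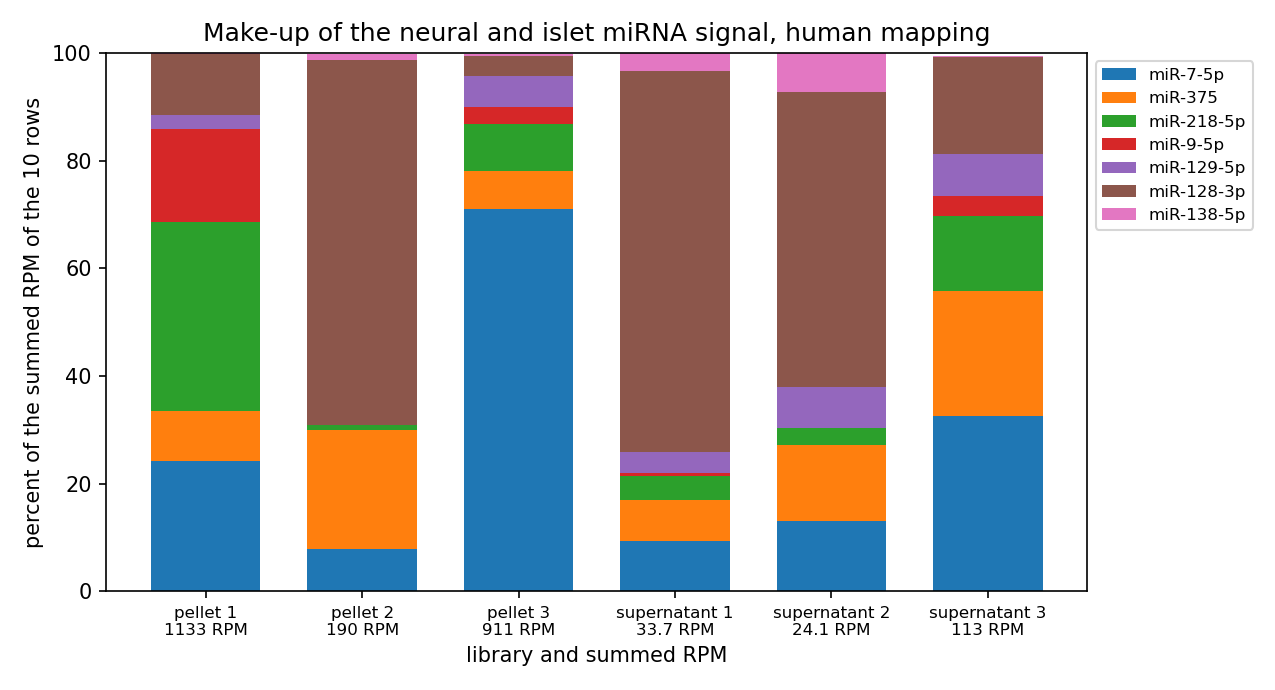
Stacked bars give the percent of the summed RPM of the 10 human rows held by each of the 7 tested miRNAs in each library, with the summed RPM under the bar. miR-128-3p holds most of the signal in pellet 2 and supernatants 1 and 2, miR-7-5p holds 70.9% in pellet 3, and miR-218-5p is first in pellet 1 with 35.3%.

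The same libraries were also mapped to the mouse genome and listed under mouse names. mmu-miR-7a-5p stood at 240.3 RPM, 9.37 RPM and 581 RPM in pellets 1, 2 and 3 and at 1.49 RPM, 2.08 RPM and 32.1 RPM in supernatants 1, 2 and 3, and ranked 2 among 395 names in pellet 3. The log2 difference between fractions was 4.16 (standard error 1.53, adjusted p = 0.0480 from limma, exact permutation p = 0.20). In estimated reads it held 0.966 times the human miR-7-5p in pellet 1 and 0.990 times in pellet 3, but 0.656 times in pellet 2 and 0.531 times in supernatant 1. The human mapping thus held more miR-7 reads in every library, by 3.11 to 61.4 reads, and miR-7b-5p held at most 1.67 reads in the mouse mapping.

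The other members had nearly the same number of reads in both mappings. The mouse to human ratio of estimated reads ran from 0.990 to 1 for miR-218-5p, from 0.992 to 1 for miR-375 and from 0.998 to 1 for miR-9-5p in libraries above 0. It ran from 1 to 1.02 for miR-129-5p and from 1 to 1.03 for miR-128-3p. miR-138-5p differed, with 1.3 to 1.5 times as many reads in the mouse mapping, and there its pellets (2.18, 3.05 and 5.59 RPM) did not overlap the supernatants (1.34, 2.01 and 0.291 RPM). Its log2 difference of 1.08 did not pass (standard error 0.63, adjusted p = 0.153 from limma, exact permutation p = 0.10). Both tables hold the same libraries, so the mouse values are no independent evidence.

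In the mouse mapping 7 of the 13 rows were tested, and 3 were higher in the pellets (miR-7a-5p, miR-375-3p with 3.16 and adjusted p = 0.0224 from limma, and miR-128-3p with 2.14 and adjusted p = 0.0305). None was lower (0 at an unadjusted p under 0.05 by limma), whereas 55.9% of all 143 tested miRNAs were higher and 0% were lower. Leaving out the same libraries as in the human mapping ended these calls, with adjusted p from 0.0545 to 0.154 for miR-7a-5p (without pellet 1 or 3 or any supernatant), 0.0852 and 0.0912 for miR-375-3p (without supernatant 1 or 2) and from 0.0542 to 0.116 for miR-128-3p (without pellet 1 or 2 or any supernatant). In the fits without supernatant 1 or 2 no miRNA of the whole mouse table was called. miR-7a-5p also missed without the trend (adjusted p = 0.0503 from limma). Scaled to the miRNA reads other than miR-122-5p, 1 mouse miRNA was higher and 7 were lower in place of 80 and 0. The mouse mapping held no miR-1246 to leave out. None of the 7 members passed on that scale (0 at an unadjusted p under 0.05 by limma). Without overlap in RPM were 3 of the 7, against 73.4% of all. miR-218-5p (3.43, adjusted p = 0.0996), miR-9-5p (3.25, adjusted p = 0.119) and miR-129-5p (1.58, adjusted p = 0.323) did not pass by limma. The 6 other rows, namely miR-7b-5p, miR-128-1-5p, miR-129-2-3p, miR-218-2-3p, miR-137-5p and miR-137-3p, held at most 1.67 estimated reads in any library.

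The miRNAs nearest in pattern were sought among the tested miRNAs outside the list, by the root mean square difference of log2(RPM + 1) over the 6 libraries after centring, a description without a test. Nearest to miR-7-5p were miR-20a-5p (0.64), miR-30e-5p (0.86) and miR-17-5p (0.90). miR-20a-5p stood at 80.6 RPM, 9.03 RPM and 91.1 RPM in pellets 1, 2 and 3 and was above 0 in supernatant 3 alone among the supernatants, at 11.4 RPM. Nearest to miR-375 were miR-92b-3p (0.45), miR-130b-5p (0.49) and miR-21-5p (0.66). Nearest to miR-218-5p were miR-30e-5p (0.89), miR-484 (1.19) and miR-20a-5p (1.27), although miR-9-5p within the list was nearer (0.31). Of these, miR-20a-5p, miR-30e-5p, miR-17-5p, miR-484 and miR-92b-3p also had their lowest pellet value in pellet 2 and their highest supernatant value in supernatant 3. They were picked for such likeness, so this tells nothing about how common the pattern is. miR-21-5p and miR-130b-5p were lowest in pellet 3 among the pellets (136 and 8.07 RPM, against 148 and 12.7 RPM in pellet 2).

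Other miRNAs known from neural and endocrine cells were taken from a list of neuronal, glial, endocrine and exocrine pancreatic miRNAs. Of its 15 human rows 9 stayed below the filter, as did 349 of all 502 names. Of the 6 tested 1 was higher in the pellets, against 47.7% of all tested miRNAs, namely miR-134-5p, a dendritic miRNA. Its values of 186 RPM, 167 RPM and 105 RPM in pellets 1, 2 and 3 stood above 55.4 RPM, 46.2 RPM and 55.3 RPM in supernatants 1, 2 and 3 (log2 difference 1.49, adjusted p = 0.0241 from limma). With supernatant 1 or supernatant 2 left out, limma called 0 miRNAs in either table, miR-134-5p included, although 67 and 61 of the human table had an unadjusted p under 0.05. None of the 6 was lower (adjusted p from 0.0729 to 0.362 for the rest, by limma), and their median log2 difference was 1.57. The others tested were the neuronal miR-329-3p, miR-433-3p and miR-485-5p, miR-219a-1-3p of the oligodendrocyte family miR-219, and miR-204-3p. miR-433-3p stood at 110.4 RPM, 86.1 RPM and 3.46 RPM in pellets 1, 2 and 3, so pellet 2 was not low there. miR-204-3p stood at 25.9 RPM, 2.55 RPM and 25.4 RPM in pellets 1, 2 and 3 and at 29.4 RPM, 34.5 RPM and 21.1 RPM in supernatants 1, 2 and 3, a log2 difference of -1.08 that did not pass (adjusted p = 0.287 from limma). In the mouse mapping 4 of 14 rows were tested and miR-134-5p alone was higher (1.55, adjusted p = 0.0248 from limma), against 55.9% of all tested miRNAs.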

How the data were processed

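RNA of 3 FBS pellets and 3 supernatants was analysed, grouped by the sample titles. The deposited values are RPM, which the authors computed per library from total mapped reads after annotating reads to hg19 with the exceRpt pipeline. For the mouse mapping the submitters' processing notes name mm10, and no source used here gives the pipeline. The tables of RNA classes were not used. Each miRNA table was fitted whole on log2(RPM + 1) by limma 3.58.1 (R 4.3.3), with a trend of variance with level and no covariate, over miRNAs reaching 1 RPM in 3 or more libraries, called at an adjusted p under 0.05 (Benjamini-Hochberg, two-sided). Exact permutation tests over 20 relabellings used scipy 1.17.1. Floors are 3 estimated reads and cover counting error only. Some values lie below or between whole reads, so no count model was fitted. Named were all members and, outside the list, the 3 tested miRNAs nearest in pattern and tested miRNAs of a neural and endocrine list. Rows of marker lists for red blood cells, platelets and leukocytes, and hepatocytes were also named, tested or not, as were miR-122-5p and miR-1246 for the scaling. Members and lists were chosen with earlier results of these data known. The paper's text names 3 different batches of FBS for the sequencing, whereas its figure legend names FBS aliquots. The p-values cover no more than the spread among these 6 samples, which may lie between batches or be technical. The limma fit, and none of the other steps, was tested on simulated data with 1 common spread for all miRNAs. The members differed in spread, so that test does not cover their case. Alternatives were pseudocounts of 0.1 and 10 RPM, no filter or 5 RPM, 3 other scalings, the replicate number as a block, no trend, and leaving out each library.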

Additional observations from a re-analysis of the deposited data

How the results depend on the processing

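The counts of called miRNAs depended on the scaling and the filter. In place of the 73 called in the human and 80 in the mouse mapping, all higher in pellets, 38 and 34 were called with a pseudocount of 10 RPM and 11 and 10 without the filter, again all higher. Scaled to miRNA reads, 38 and 10 were called (37 and 9 higher, 1 and 1 lower). The next scaling left miR-122-5p and, in the human mapping, miR-1246 out of that total. With it, and likewise with median-of-ratios scaling, 6 and 8 were called, of which 1 and 1 were higher and 5 and 7 lower. In place of the 3 members called in each mapping, 1 and 1 were called with a pseudocount of 10 RPM, 0 and 0 without the filter (2 in each at an unadjusted p under 0.05 by limma), 1 and 0 when scaled to miRNA reads, and 0 and 0 with either of the last scalings (0 unadjusted in both). With 1 library left out, calls ranged from 0 to 93 (human) and from 0 to 87 (mouse), and among members from 0 to 5 in both. The 0 arose without supernatant 1 or 2, where 67 and 61 miRNAs had an unadjusted p under 0.05 by limma in the human and 66 and 60 in the mouse mapping. Reversed were miR-128-3p (-0.0198) and miR-129-5p (-0.0303) without miR-122-5p and miR-1246 in the human total. miR-138-5p was reversed there (-0.29) and in the mouse mapping without miR-122-5p (-0.24), and with median-of-ratios scaling (-0.23 human, -0.25 mouse). The cause was not tested. The replicate block raised the members called from 3 to 5 in both mappings, adding miR-218-5p and miR-9-5p, and moved all calls to 78 and 73. The paper's text has both fractions made from 3 FBS batches, but the labels do not say whether same-numbered libraries came from the same batch. Deviations of same-numbered libraries correlated at -0.19, 0.27 and 0.26 in the human mapping. With 3 libraries per fraction these values cannot decide whether the libraries are pairs. Not every library correlated best with its own number. At 1.15 RPM per read in pellet 3, members of a few RPM could not be measured well.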
